A study of Mus musculus with 12 samples.

Results

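Hippocampal messenger RNA was examined here for 10 genes that mark the pyramidal cells of the CA fields, of 23329 genes in the deposited files. The genes were taken by symbol: Wfs1, Fibcd1, Mpped1, Pou3f1 and Man1a for CA1, Amigo2, Rgs14 and Pcp4 for CA2, and Bok and Iyd for CA3. The estimated counts of all transcripts of a symbol were summed in each library.

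The pyramidal cells of the hippocampus form a curved layer divided into the fields CA1, CA2 and CA3. Signals from the dentate gyrus reach CA3 through the mossy fibres, and CA3 projects to CA1 through the Schaffer collaterals, while CA2 is a small field between them that is known for its part in social memory. Each field has a transcript set of its own, so in RNA from whole tissue such genes track the fields that a sample holds as well as the state of their cells. Some of these genes are also used elsewhere: Pcp4 is found in dentate granule cells and in thalamus and striatum, and Mpped1 and Pou3f1 in neocortex. The field names below are those of the gene sets, since RNA from whole tissue does not place a transcript in a field.

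The study sequenced polyadenylated RNA of the hippocampus of C57BL/6 mice. One genotype was wild type (WT) and the other lacked NONO (KO), a nuclear RNA- and DNA-binding protein that also binds PER proteins of the circadian clock. Each genotype was sampled at CT10 and at CT22, labels that are not spelled out, which gave 4 groups of 3 libraries: WT CT10, KO CT10, WT CT22 and KO CT22. The age of the mice, how the mutant allele was made and whether a library came from 1 animal are not given in the labels, and the p-values therefore cover the spread among libraries only, part of which may be technical. In bulk tissue, fewer cells of a type and less RNA per cell cannot be told apart.

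Of the 10 genes, 8 had promoter sequence in the RefSeq table of build GRCm38.p6, which has the same coordinates as mm10. Promoters of Fibcd1, Mpped1, Bok and Iyd are shown because in WT CT22 replicate 1 these 2 CA1 genes were at their highest and these 2 CA3 genes at their lowest, as described below. Man1a was also at its highest there and Amigo2 and Pcp4 at their lowest, and their windows are not shown. Each window runs 5′ to 3′ on the gene's strand from 250 bases before to 50 bases after the RefSeq start, and capitals mark matches to the motifs named after the sequences.
Fibcd1, chr2:31845956-31846255, minus strand: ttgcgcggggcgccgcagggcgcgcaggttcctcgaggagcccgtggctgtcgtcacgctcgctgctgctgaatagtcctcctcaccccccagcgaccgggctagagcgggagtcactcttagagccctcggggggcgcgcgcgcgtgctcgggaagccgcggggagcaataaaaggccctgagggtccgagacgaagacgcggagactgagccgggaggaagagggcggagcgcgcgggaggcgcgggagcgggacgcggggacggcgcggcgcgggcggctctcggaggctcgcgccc
Mpped1, chr15:83779773-83780072, plus strand: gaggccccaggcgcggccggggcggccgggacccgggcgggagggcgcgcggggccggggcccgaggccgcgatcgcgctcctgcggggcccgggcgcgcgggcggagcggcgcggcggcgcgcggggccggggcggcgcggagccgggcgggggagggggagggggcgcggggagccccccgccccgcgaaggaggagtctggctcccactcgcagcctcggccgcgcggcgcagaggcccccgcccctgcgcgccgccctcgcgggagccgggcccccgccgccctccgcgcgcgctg
Bok, chr1:93685325-93685624, plus strand: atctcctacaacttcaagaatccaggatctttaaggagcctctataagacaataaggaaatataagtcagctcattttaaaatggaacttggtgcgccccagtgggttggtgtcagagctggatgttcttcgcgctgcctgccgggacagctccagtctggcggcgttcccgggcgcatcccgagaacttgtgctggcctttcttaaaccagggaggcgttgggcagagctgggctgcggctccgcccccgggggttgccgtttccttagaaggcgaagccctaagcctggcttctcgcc
Iyd, chr10:3540024-3540323, plus strand: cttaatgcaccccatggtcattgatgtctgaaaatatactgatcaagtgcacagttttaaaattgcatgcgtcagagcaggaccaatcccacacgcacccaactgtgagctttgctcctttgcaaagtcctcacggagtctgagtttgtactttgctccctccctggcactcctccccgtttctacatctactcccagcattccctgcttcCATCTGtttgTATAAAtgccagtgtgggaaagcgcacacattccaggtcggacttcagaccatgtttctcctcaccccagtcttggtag
The 4 windows differ in base composition. Fibcd1 had 74.3% and Mpped1 89.3% G and C, with 46 and 59 CG pairs, and Bok and Iyd had 56.3% and 49.0%, with 16 and 6 CG pairs. This split does not extend to the windows not shown: Man1a, high in that library, had 72.7% and 38 CG pairs. Of those low in it, Amigo2 had 83.3% and 46, and Pcp4 48.7% and 6. The table holds a second Mpped1 window, at chr15:83784579-83784878, with 47.3% G and C and 3 CG pairs; the window shown is the one at the start used by the deposited files. Over all 32851 promoters in the table the medians were 52.7% and 7. Motifs were searched on both strands. The E-box CACGTG, bound by clock factors, was in 7.15% of all promoters and in none of the member windows, and the cyclic AMP response element TGACGTCA was in 1.79% and likewise in none of them. The neuronal E-box CAGATG, which reads as CATCTG from the other strand, was held by 17.2% of all promoters and by the windows of Iyd and Wfs1. The sequence TATAAA of the core promoter was held by 13.6% of all promoters and by the window of Iyd. In the Bok window, the start used by the deposited files lies 119 bases downstream of the RefSeq start, outside the window.

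The deposited files of mm10 place Fibcd1 on chr2:31813290-31846005 (minus strand, 7 exons), Mpped1 on chr15:83780023-83858474 (plus strand, 7 exons), Bok on chr1:93685694-93695762 (plus strand, 5 exons) and Iyd on chr10:3540279-3554877 (plus strand, 5 exons). These spans include introns, and the counts are those of the spliced transcripts. Of the 10 genes, 9 had 1 transcript and Amigo2 had 3. In the annotation, Man1a overlaps an antisense gene, Amigo2 overlaps Pced1b on the other strand and Pcp4 overlaps Igsf5 on its own strand, so reads in the shared parts are uncertain for these genes.

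Libraries held 4435606 to 10911046 counts. Nono, the targeted gene, ran from 1147 to 1814 counts in the 6 WT libraries and from 0 to 4 in the 6 KO libraries, so the genotype labels held. The CT labels held less well: Dbp, a clock output gene, was at 33.5 CPM (TMM-scaled counts of the gene relative to the library total) in KO CT10 replicate 3 against 70.4 to 105 in the other CT10 libraries, and at 90.8 CPM in KO CT22 replicate 1 against 32.2 to 59.5 in the other CT22 libraries. KO CT22 replicate 1 also stood apart in tissue markers, as did WT CT22 replicate 1 and KO CT22 replicate 3. The summed level of 8 dentate granule cell genes was lowest in WT CT22 replicate 1 (383 CPM) and highest in KO CT22 replicate 1 (869 CPM), and that of 12 choroid plexus genes ran from 94.2 CPM in KO CT22 replicate 1 to 3861 CPM in KO CT22 replicate 3. Choroid plexus genes were high in a library of each other group too, at 3638.5 CPM in KO CT10 replicate 1, 1632 CPM in WT CT10 replicate 3 and 1592 CPM in WT CT22 replicate 3. WT CT10 replicate 1 was also low, at 115 CPM. Forebrain excitatory neuron genes, the class that CA pyramidal cells belong to, were present in every library, at 5614 to 8891 CPM summed over 6 genes.

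Per length of transcript, Pcp4 was the most abundant of the 10 genes on average, at 402 ± 72.9 TPM (length-scaled transcript abundance, mean ± SD, n = 12). It was above Mpped1 in 11 of 12 libraries and below it in WT CT22 replicate 1 (299 against 350 TPM). Mpped1 (198 ± 59.2 TPM), Bok (158.5 ± 40.5 TPM), Rgs14 (137 ± 20.5 TPM), Wfs1 (122 ± 21.4 TPM) and Fibcd1 (109.5 ± 29.3 TPM) followed, each differing from the next in this order by less than 1 SD. Pou3f1 (40.1 ± 8.18 TPM), Amigo2 (33.3 ± 8.1 TPM) and Man1a (31.8 ± 6.21 TPM) formed a lower set whose neighbours likewise differed by less than 1 SD. Iyd was the rarest, at 8.35 ± 3.77 TPM. Fibcd1 was above Pou3f1, and Man1a above Iyd, in all 12 libraries with no overlap between their values. Iyd rested on 12 to 83 counts per library, against 139 to 435 for Amigo2 and more for every other member, so its values carry the largest counting error.

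Among the CA1 genes, Wfs1 encodes wolframin, a membrane protein of the endoplasmic reticulum. Its levels were 190.0, 171 and 139 CPM in WT (replicates 1, 2 and 3, an order kept below) and 164, 127 and 226 CPM in KO at CT10, and 161, 185 and 179 CPM in WT and 188, 203 and 137 CPM in KO at CT22. The 4 groups overlapped, and both the lowest and the highest library were KO CT10 libraries. Group means lay between 167 ± 25.7 CPM (WT CT10) and 176 ± 35 CPM (KO CT22).

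Fibcd1 encodes a membrane receptor with a fibrinogen-like domain that binds acetylated groups. It measured 175, 215 and 182 CPM in WT and 187, 235 and 179 CPM in KO at CT10. At CT22 it measured 341, 250.5 and 240.3 CPM in WT and 118, 177 and 189 CPM in KO. The CT10 groups overlapped, whereas at CT22 every WT library lay above every KO library. Group means were 191 ± 21.6 (WT CT10), 200.2 ± 30.3 (KO CT10), 277 ± 55.3 (WT CT22) and 161 ± 38 CPM (KO CT22). WT CT22 replicate 1 was the highest and KO CT22 replicate 1 the lowest of the 12.

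Mpped1 encodes a protein with a metallophosphoesterase domain. Its levels were 213, 240.3 and 159.7 CPM in WT and 216, 263 and 303 CPM in KO at CT10, and 438, 249 and 273 CPM in WT and 157, 260.2 and 281 CPM in KO at CT22. As for Fibcd1, WT CT22 replicate 1 was the highest and KO CT22 replicate 1 the lowest library. The other 4 CT22 libraries, 2 of each genotype, lay between 249 and 281 CPM and interleaved.

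Pou3f1, a POU-domain transcription factor with a single exon, ranged from 36.4 CPM in KO CT22 replicate 1 to 61.8 CPM in WT CT22 replicate 3, and the KO CT22 group alone spanned 36.4 to 61.6 CPM. Man1a, a Golgi mannosidase that trims N-linked glycans, ranged from 29.3 CPM in WT CT10 replicate 3 to 59.8 CPM in WT CT22 replicate 1. At CT22, Man1a was at 59.8, 55.4 and 48.9 CPM in WT and at 36.9, 48.8 and 48.6 CPM in KO. The lowest WT library (48.91 CPM) and the highest KO library (48.81 CPM) almost met.

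Among the CA2 genes, Amigo2, a leucine-rich repeat cell adhesion protein, measured 44.6, 41.6 and 53.3 CPM in WT and 48.0, 44.9 and 32.5 CPM in KO at CT10. At CT22 it measured 17.4, 38.6 and 35.0 CPM in WT and 43.5, 31.1 and 31.1 CPM in KO. All 3 WT CT22 libraries lay below all 3 WT CT10 libraries, and WT CT22 replicate 1 was the lowest of the 12. Its estimated counts were divided among 3 transcripts in proportions that varied widely: the 2839-base transcript took 30.3% to 84.4% of them, and the 2871-base transcript was at 0 in 3 WT libraries.

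Rgs14, a regulator of G protein signalling that limits synaptic plasticity in CA2 neurons, measured 154, 136 and 127 CPM in WT and 111, 130.3 and 129 CPM in KO at CT10. At CT22 it measured 103, 142 and 159.0 CPM in WT and 131, 127 and 80.3 CPM in KO. The genotypes overlapped at both labels, and the lowest library was KO CT22 replicate 3. Pcp4, a small calmodulin-binding protein, ran from 67.5 CPM in WT CT22 replicate 1 to 121 CPM in KO CT22 replicate 3, and the group means were 89.8, 91.0, 85.6 and 106 CPM in WT CT10, KO CT10, WT CT22 and KO CT22. The high KO CT22 mean came from replicates 1 (119 CPM) and 3 (121 CPM), while replicate 2 was at 79.5 CPM. Replicate 1 had the highest dentate granule sum (869 CPM) of the 12 libraries but the lowest sum of 9 striatal genes (102 CPM). Replicate 3 had the highest sums of 9 striatal (252 CPM) and 9 thalamic and habenular genes (186 CPM), but a dentate granule sum of only 406 CPM. Pcp4 is also found in these regions, and their part in the Pcp4 level was not tested.

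Among the CA3 genes, Bok, a pro-apoptotic member of the BCL-2 family, measured 113, 90.0 and 98.2 CPM in WT and 84.6, 95.03 and 77.4 CPM in KO at CT10. At CT22 it measured 37.1, 112 and 100.1 CPM in WT and 109, 84.4 and 51.9 CPM in KO. The CT10 libraries were close together, while at each genotype a single CT22 library was far below the rest. Iyd, an enzyme that recovers iodide from iodotyrosines, was lowest in the same pair of libraries, at 1.2 CPM in WT CT22 replicate 1 (12 counts, exact 95% Poisson interval 6.2 to 21.0) and 1.57 CPM in KO CT22 replicate 3 (13 counts, 6.92 to 22.2). It was highest in KO CT22 replicate 1, at 8.31 CPM (83 counts, 66.1 to 103). These intervals cover counting error only, and the low and high ones do not meet. Iyd was at 3.18 to 5.66 CPM in the 6 CT10 libraries.

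**Figure D1:**
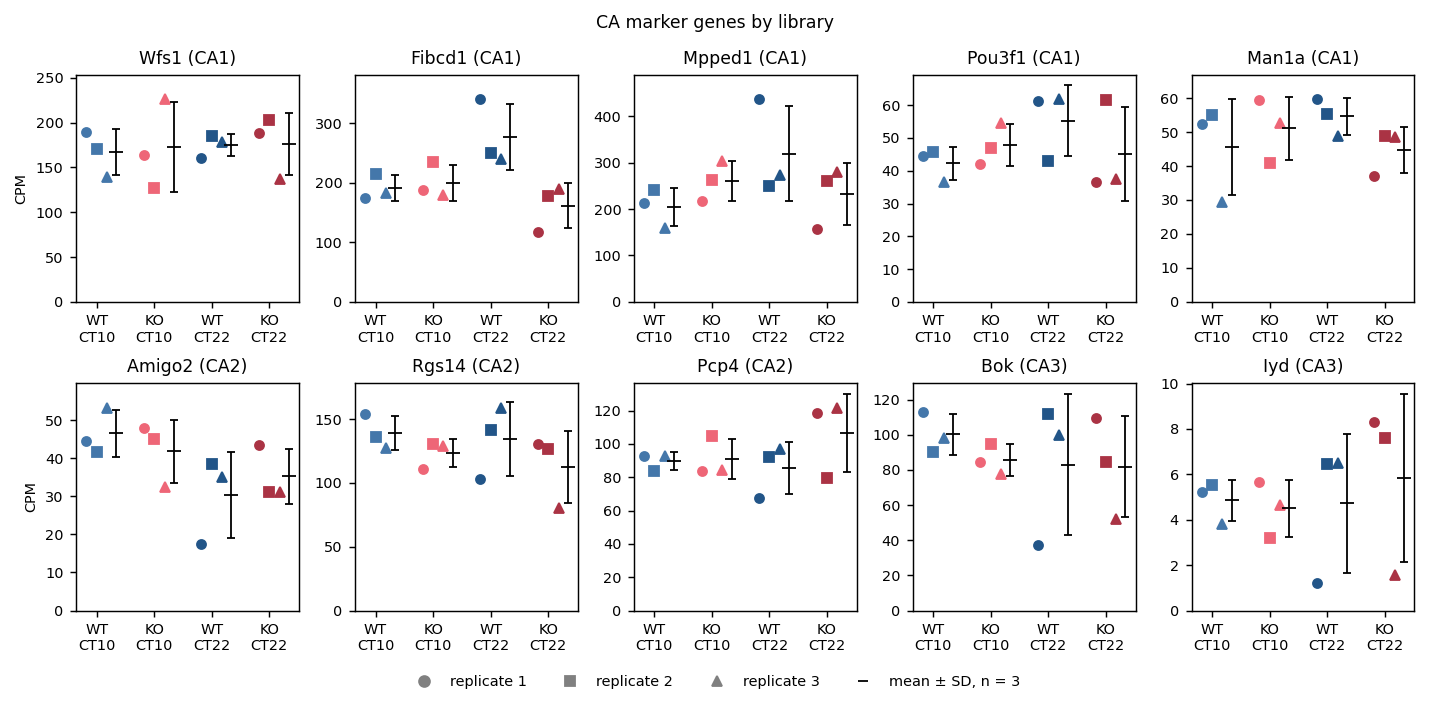
Level of each marker gene (CPM, vertical axis from 0) in the 12 libraries by group, with the symbol shape giving the replicate number and the black bar the group mean ± SD (n = 3). Fibcd1 shows the 3 WT CT22 libraries (240.3 to 341 CPM) above the 3 KO CT22 libraries (118 to 189 CPM), and Bok and Iyd show 1 low library in each CT22 group.

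Whether loss of NONO alters the CA marker genes was tested with edgeR's quasi-likelihood test, adjusted over 14131 genes. Averaged over both CT labels, 4 of the 10 genes were higher and 6 lower in KO, with a median log2 change of -0.06 against 0.01 over all genes tested. None of the 10 passed an adjusted p of 0.05, against 0.0212% of all genes (3 genes), and 1 of 10 had an unadjusted p under 0.05, against 6.35% (897 genes). That gene was Fibcd1, with a log2 change of -0.36 (SE 0.13, edgeR adjusted p = 0.703). Rgs14 (log2 change -0.22, SE 0.13) and Pcp4 (0.17, SE 0.12) came next in size of p, with edgeR adjusted p-values of 0.817 and 0.826. For Wfs1 the 95% interval of the log2 change ran from -0.28 to 0.34, for Amigo2 from -0.37 to 0.45 and for Bok from -0.74 to 0.50, and for Iyd it spanned -0.88 to 1.06. No member separated all WT from all KO libraries, which 0.446% of all genes did. In the authors' deposited table of KO over WT, Fibcd1 had a log2 ratio of -0.38 with an adjusted p of 0.637, and the adjusted p-values of the other 9 were 0.891 (Rgs14), 0.965 (Pcp4) and 1 for the remaining 7.

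At CT10 the 5 CA1 genes were all higher in KO than in WT and 4 of the 5 CA2 and CA3 genes lower, but none passed the test. In runs that left out 1 library each, 3 to 5 of the CA1 genes were higher. The background there was 0.00708% called (1 gene). Log2 changes of the CA1 genes were between 0.05 (Wfs1) and 0.35 (Mpped1, SE 0.27), and those of the CA2 and CA3 genes between -0.23 (Bok, SE 0.39) and 0.02 (Pcp4). All edgeR adjusted p-values were above 0.99. None of the 10 had an unadjusted p under 0.05, against 3.09% of all genes, and none separated the 2 groups, against 10.3%.

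At CT22 Fibcd1 was lower in KO by a log2 change of -0.79 (SE 0.19, 95% interval -1.19 to -0.38), with an edgeR adjusted p of 0.372. By p it ranked 42 among the 14131 genes. It was not called by edgeR, which called 0 of the 10 members and 0.0142% of all genes (2 genes). One member, Fibcd1, had an unadjusted p under 0.05, against 10.9% of all genes. DESeq2 on the same counts called Fibcd1 at an adjusted p of 0.0109, one of 30 genes it called, and called no other member. The other CA1 genes except Wfs1 (0.01) also had negative values, at -0.46 for Mpped1 (SE 0.27), -0.32 for Pou3f1 (SE 0.20) and -0.30 for Man1a (SE 0.21), and edgeR adjusted p-values of 0.551 to 0.61. Pcp4 was at 0.33 (SE 0.16, edgeR adjusted p = 0.48), Amigo2 at 0.23 and Rgs14 at -0.26. The intervals of the CA3 genes were wide, from -0.89 to 0.86 for Bok and from -1.07 to 1.63 for Iyd. Fibcd1 and Man1a, 2 of 10, separated the 2 groups, against 13.7% of all genes.

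The Fibcd1 difference at CT22 rested partly on the 2 libraries that stood apart in dentate granule genes. Without WT CT22 replicate 1 the edgeR log2 change was -0.62 (adjusted p = 0.154), without KO CT22 replicate 1 it was -0.61 (adjusted p = 0.508), and without both it was -0.43 (SE 0.13, adjusted p = 0.13). KO CT22 replicate 1 is also the library whose Dbp level lay with CT10, and without it and KO CT10 replicate 3 the edgeR log2 change was -0.60 (adjusted p = 0.524). DESeq2 called Fibcd1 in 11 of 12 runs that left out 1 library each, the exception being the run without KO CT22 replicate 1 (adjusted p = 0.144), and did not call it without both libraries (adjusted p = 0.0542). The runs without a CT10 library kept every CT22 library, so they test this difference little, and the DESeq2 log2 change stayed at -0.79 in them. The change of the NONO effect between the CT labels, tested as an interaction, was -0.85 for Fibcd1 (SE 0.26, edgeR adjusted p = 0.737) and -0.81 for Mpped1 (SE 0.39, edgeR adjusted p = 0.737). No gene passed that test (0% of 14131 genes), while 861 genes (6.09%) and 1 member, Fibcd1, had an unadjusted p under 0.05, and DESeq2 called none of the members.

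Between CT10 and CT22 in WT, all 5 CA1 genes were higher and all 5 CA2 and CA3 genes lower at CT22, and none passed the test. Fibcd1 had a log2 change of 0.54 (SE 0.18), Mpped1 of 0.64 (SE 0.27) and Amigo2 of -0.61 (SE 0.26), each with an edgeR adjusted p of 0.722 and an unadjusted p under 0.05. These 3 genes also separated the 2 WT groups. The background was 0% called by adjusted p, 6.76% with an unadjusted p under 0.05 and 16.2% with groups apart. Without WT CT22 replicate 1 the values were 0.37 for Fibcd1, 0.36 for Mpped1 and -0.33 for Amigo2, with edgeR adjusted p-values of 0.638, 0.694 and 0.647. The 5 CA1 genes were still higher without that library, but of the CA2 and CA3 genes only Amigo2 was still lower, and Rgs14 (0.12), Pcp4 (0.08), Bok (0.08) and Iyd (0.41) turned to higher. In the fit of all libraries the remaining 7 genes had log2 changes between -0.27 (Bok) and 0.39 (Pou3f1). The WT groups are the same libraries that entered the NONO comparisons, so these values are not independent of them.

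In KO the same step gave log2 changes of the CA1 genes from -0.31 (Fibcd1, SE 0.19) to 0.02 (Wfs1). None of the 10 was called, as of all genes (0%), none had an unadjusted p under 0.05 (3.16% of all genes) and none separated the groups (7.97%). Iyd was at 0.34 (SE 0.62), Pcp4 at 0.24 (SE 0.16) and Amigo2 at -0.23 (SE 0.27). KO CT10 replicate 3 and KO CT22 replicate 1, whose Dbp level lay with the other label, both enter this comparison.

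**Figure D2:**
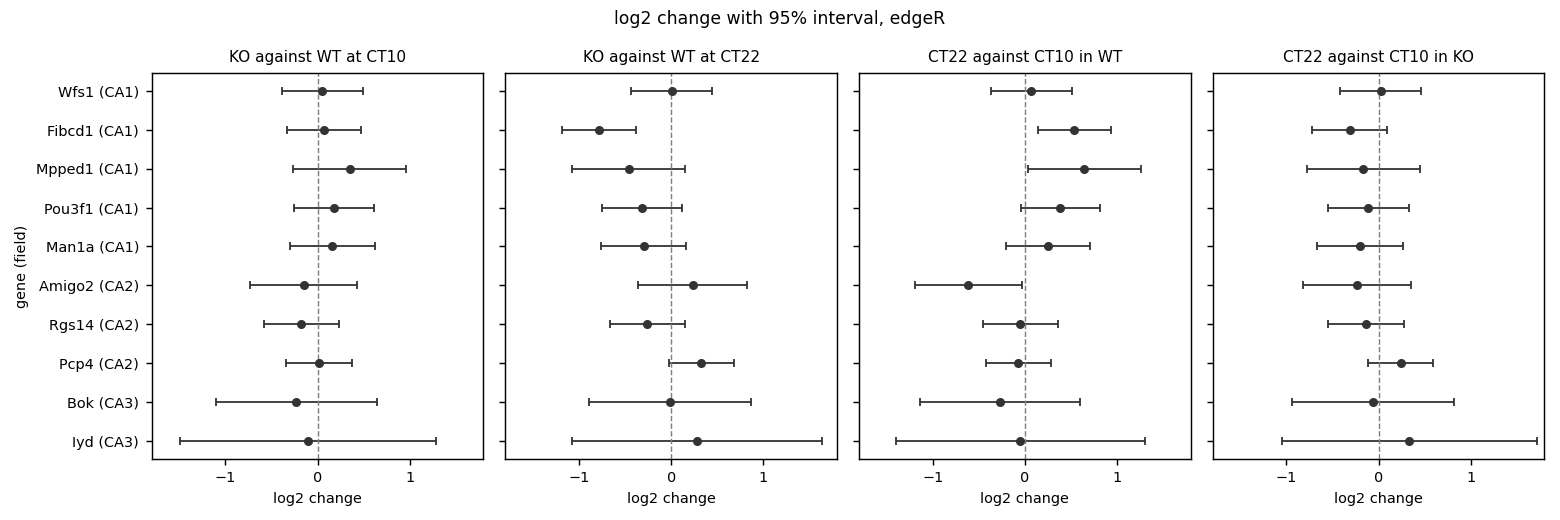
Log2 change of each marker gene (horizontal axis) with its 95% interval in 4 comparisons, from the edgeR fit to 12 libraries; the dashed line marks no change. The Fibcd1 interval lies below 0 for KO against WT at CT22 (-1.19 to -0.38) and above 0 for CT22 against CT10 in WT (0.14 to 0.94), and no member passed the adjusted threshold in any panel.

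The CA genes varied widely between libraries of 1 group. Within groups, the SD of log2 CPM was 0.86 for Iyd and 0.52 for Bok, larger than in 99.3% and 96.4% of the genes tested, and 0.38 for Amigo2 and 0.37 for Mpped1, in which 89.8% and 89.1% of genes were below. The lowest, that of Pcp4, was 0.24, still above the median of 0.17 over all genes tested. WT CT22 replicate 1 held an extreme value of the 12 for 7 of the 10 genes: it was highest for Fibcd1, Mpped1 and Man1a and lowest for Amigo2, Pcp4, Bok and Iyd. KO CT22 replicate 1 held 4 extremes of the opposite kind, lowest for Fibcd1, Mpped1 and Pou3f1 and highest for Iyd.

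**Figure D3:**
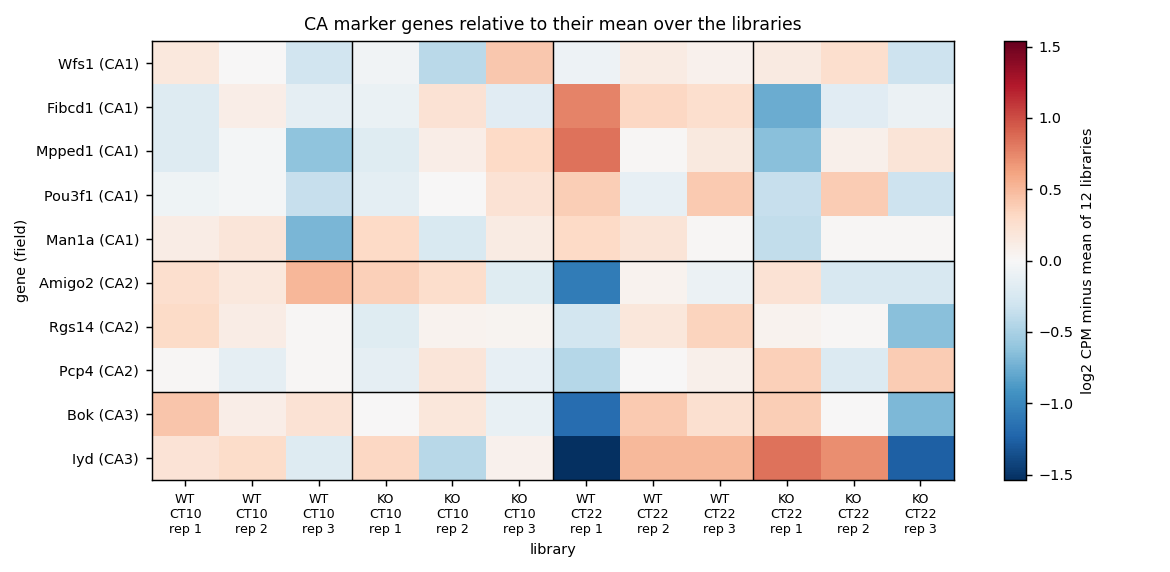
Log2 CPM of each marker gene minus its mean over the 12 libraries, by library (columns, grouped by genotype and CT label) and gene (rows, grouped by field), with red above and blue below the mean. WT CT22 replicate 1 is red for 4 CA1 genes and blue for the CA2 and CA3 genes. KO CT22 replicate 3 is most blue for Rgs14, Bok and Iyd, and fainter blue for Wfs1, Fibcd1, Pou3f1 and Amigo2.

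Summed by field, the CA1 genes ranged from 364.5 TPM (WT CT10 replicate 3) to 745 TPM (WT CT22 replicate 1), the CA2 genes from 429 TPM (WT CT22 replicate 1) to 716 TPM (KO CT22 replicate 1) and the CA3 genes from 71.3 TPM (WT CT22 replicate 1) to 219.6 TPM (KO CT22 replicate 1). The ratio of the CA1 to the CA3 sum was 3.5 ± 2.35 (mean ± SD, n = 12). It was 10.4 in WT CT22 replicate 1, 4.91 in KO CT22 replicate 3, 1.75 in KO CT22 replicate 1 and between 2.00 and 3.85 in the other 9 libraries. Group means were 2.34 ± 0.467 in WT CT10, 3.13 ± 0.622 in KO CT10, 5.26 ± 4.5 in WT CT22 and 3.28 ± 1.58 in KO CT22, so the groups overlapped. Bok made up 92.3% to 97.3% of the CA3 sum, and Pcp4 66.3% to 82.3% of the CA2 sum. Without Pcp4 the CA2 sum was lowest in KO CT22 replicate 3 (119 TPM) and WT CT22 replicate 1 (130 TPM), the pair of libraries that was also lowest in the CA3 genes.

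**Figure D4:**
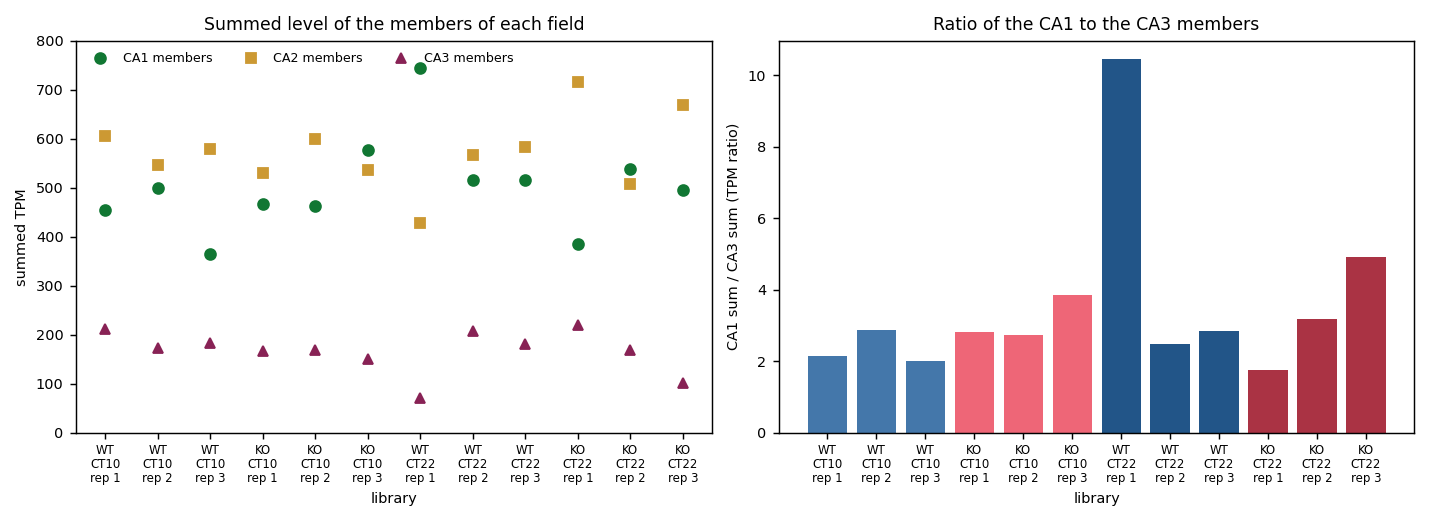
Left, summed TPM of the CA1, CA2 and CA3 marker genes in each of the 12 libraries; right, the ratio of the CA1 to the CA3 sum in the same libraries (bars from 0). WT CT22 replicate 1 has the highest CA1 sum (745 TPM), the lowest CA3 sum (71.3 TPM) and a ratio of 10.4.

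Some marker lists outside the 10 genes had their ends in the same libraries. A further 7 CA1 genes were lowest in sum in KO CT22 replicate 1 (95.2 CPM) and highest in WT CT22 replicate 1 (389 CPM), the libraries that were lowest and highest for Fibcd1 and Mpped1. Among them Nov, the most abundant, went from 24.1 to 214 CPM. The dentate granule sum was at its ends in the same libraries in the opposite order, as given above. The subiculum genes Nts and Fn1 summed to 132 CPM in WT CT22 replicate 1, the highest of the 12, and Fn1 alone gave 125 CPM of it. The ends were not particular to these lists: 7 interneuron genes were also lowest in KO CT22 replicate 1 (770 CPM) and highest in WT CT22 replicate 1 (1135 CPM). In KO CT22 replicate 1 the sum of 17 non-neuronal genes was at its lowest (5368 CPM) and that of the forebrain excitatory neuron genes at its highest (8891 CPM). The 7 further CA3 genes as a sum did not follow the CA3 members: they were lowest in KO CT22 replicate 1 (762 CPM), where Iyd was highest, and highest in WT CT10 replicate 3 (1044 CPM). Cpne7, the most abundant of that list, was at 455 CPM in WT CT22 replicate 1 and at 190.1 CPM, its lowest, in KO CT22 replicate 1. Grik4 (45.9 CPM), Pvrl3 (15.9 CPM) and Cpne4 (63.8 CPM), 3 of the 7 chosen after their values were seen, were lowest in WT CT22 replicate 1. The further CA2 genes ran from 168 CPM in that library to 241 CPM in WT CT10 replicate 3. The sum of 9 meningeal genes was 282 CPM in WT CT22 replicate 1, the highest among WT libraries, and 246 CPM in KO CT22 replicate 1. It was highest of all in KO CT22 replicate 3 (478 CPM), where Dcn was highest too (83.9 CPM). The part of meningeal tissue in Dcn and in the sum of the further CA1 genes was not tested. No gene of these lists was at 0 in any library. The part of tissue composition in the Fibcd1 and Mpped1 differences was not tested.

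The same companion lists were counted in each comparison. At CT22 in KO, of the 7 further CA1 genes 1 was higher and 6 lower (median log2 change -0.31, against -0.32 for the 5 CA1 members and 0.00 over all genes), and of the 7 further CA3 genes 6 were higher and 1 lower (median 0.32). Of 10 further CA2 genes 9 were tested, 7 higher and 2 lower (median 0.11). All 8 dentate granule genes were higher (median 0.27). None of these genes passed the edgeR test. The counts of the further CA1 genes and of the dentate granule genes turned when replicate 1 of both genotypes was left out at CT22. Then 5 of 7 further CA1 genes were higher (median 0.23) and 6 of 8 dentate granule genes lower (median -0.41). The count of the 5 CA1 members did not turn, with 1 higher and 4 lower (median -0.12). The remaining CT22 libraries summed to 183 and 196 CPM in WT and 241 and 314 CPM in KO for the further CA1 genes, and to 576 and 506 CPM in WT and 528 and 406 CPM in KO for the dentate granule genes. Without WT CT22 replicate 1 alone 4 of the further CA1 genes were higher and without KO CT22 replicate 1 alone 4, while of the dentate granule genes 5 and 2 were. Without both, 4 of 7 further CA3 genes were higher (median 0.08) and 3 of 10 further CA2 genes (median -0.23). At CT10 the further CA1 genes were higher in 5 of 7 (median 0.31) and the further CA3 genes lower in 5 of 7 (median -0.21). In WT between CT10 and CT22, 6 of 7 further CA1 genes were higher (median 0.45) and 6 of 7 further CA3 genes lower (median -0.48), again with none called.

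Across the 12 libraries, correlations of log2 CPM between the marker genes are given as a description, since the points share library, depth and dissection. CA1 genes were positively correlated with each other in 9 of 10 pairs (median Pearson r 0.48) and negatively with CA3 genes in 8 of 10 (median -0.33) and with CA2 genes in 13 of 15 (median -0.50), while CA2 and CA3 genes were positively correlated in 6 of 6 (median 0.64). Leaving out the 2 libraries farthest from the median of the first gene of each pair took these medians to 0.28, -0.04, -0.12 and 0.40. The libraries left out differ by gene, and single pairs moved either way: Mpped1 and Bok went from -0.75 to -0.42, and Pou3f1 and Bok from -0.30 to -0.51. Fibcd1 and Mpped1 had an r of 0.77 (Spearman rho 0.57), and 0.27 without such libraries. Bok and Iyd had an r of 0.85 (rho 0.51), and 0.19 without them. A pair that kept its r was Mpped1 and Amigo2, at -0.87 (rho -0.76) and -0.84. Rgs14 followed the CA3 gene Bok, at 0.79 (rho 0.83) and 0.60, and its r with Pcp4, of its own field, was -0.09 (rho 0.19), and 0.25 without such libraries. Wfs1 had an r of -0.28 with Fibcd1, of its own field.

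Of 13074 genes with a mean of at least 2 CPM, the one most like each member over the 12 libraries was found by Pearson's r of log2 CPM. The highest of 13074 correlations over 12 libraries can be high for unrelated genes too, so these values are a description only. Bok was most like Lrrc10b (r 0.99, rho 0.92, and 0.90 without the 2 farthest libraries) and next Nefl (0.96, and 0.69 without them). Mpped1 was most like Galnt9 (0.97, rho 0.94, and 0.95 without them), a glycosyltransferase gene. For the CA2 genes the closest were Kcnab2 for Rgs14 (0.96, and 0.90 without them), Lsm11 for Amigo2 (0.96, and 0.87) and Srp54c for Pcp4 (0.85, and 0.85). Among the other CA1 genes, Fibcd1 was closest to Sparcl1 (0.90, and 0.73), Pou3f1 to Dtnbp1 (0.94, and 0.91), Man1a to Pex5l (0.88, and 0.60) and Wfs1 to Nos1ap (0.87, and 0.76). Iyd was closest to Dpf3 (0.92, and 0.73). None of the closest genes was itself among the 10 members.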

How the data were processed

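Stranded, polyadenylated hippocampal RNA was sequenced by Illumina, per the labels' protocols. The submitters' processing notes name build mm10 and the tools RSEM 1.2.5, TopHat 1.3.3, edgeR 3.0.6 and FastQC, with no order of steps. Each deposited file holds estimated counts, TPM and FPKM per transcript, per the file headers; FPKM was not used. The authors' deposited table holds log2 ratios of KO over WT with p-values, raw and adjusted, and a normalised signal per library, by the authors, that was not used. Samples were grouped by title.

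Estimated counts were summed per symbol to 23329 genes and rounded, and TPM was summed likewise. The sources used here do not say whether counting used the strand. Tests used edgeR 4.0.16 in R 4.3.3. The filter filterByExpr (minimum count 10) left 14131 genes, TMM factors were 0.979 to 1.02, and all 12 libraries entered a single robust quasi-likelihood fit of the 4 group means (8 residual degrees of freedom), with Benjamini-Hochberg adjustment over all genes and a threshold of 0.05. DESeq2 1.42.0 was an alternative. All 10 members passed the filter and were tested in each comparison. The text gives single values for part of them, and the figure of log2 changes shows all 10 in 4 comparisons. Per member the 2 genes with the highest Pearson r were computed. Of the companion lists used, the text gives counts, medians or ranges, and names abundant members and others chosen after their values were seen. Members and lists were chosen with earlier results of these data known. The script was tested on simulated data. Promoters came from RefSeq, GRCm38.p6. Libraries held 4435606 to 10911046 counts, which limits Iyd most. Replicates of a group differed by more than sampling noise (chi-square per degree of freedom 2.92 to 20.3), so none was counted as a duplicate.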

Additional observations from a re-analysis of the deposited data

Results flagged for a closer look

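In 20 sets of 6 libraries (each of the 10 genes, WT and KO separately), 2 values lay farther from the rest of their set than Dixon's 95% criterion allows. Chance alone flags about 1 in 20 sets when the values of a set come from 1 normal distribution. Each set here pools CT10 and CT22 libraries, and the 20 sets share the same 12 libraries, so that rate is only a rough guide. Bok in WT CT22 replicate 1 was at 37.1 CPM, and the nearest WT library was at 90.0 CPM, a gap that covers 0.698 of the range of the set. Man1a in WT CT10 replicate 3 was at 29.3 CPM, with the nearest WT library at 48.9 CPM and a gap of 0.643 of the range. The Bok value came from the library with the lowest dentate granule sum (383 CPM) and the highest sum of further CA1 genes (389 CPM). The part of these in the Bok value was not tested.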

How the results depend on the processing

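Across the alternatives the number of members called was 0 in every comparison except KO against WT at CT22 with DESeq2, where 1 was called (Fibcd1); the cause was not tested. With edgeR without each library in turn, 0 members were called in each comparison (range 0 to 0), while DESeq2 called Fibcd1 at CT22 in 11 of 12 such runs. Those runs include the ones without a CT10 library, which keep every CT22 library. Fibcd1 at CT22 had a log2 change of -1.01 to -0.43 over the alternatives, with adjusted p-values of 0.0109 to 0.963, and of -0.93 to -0.61 in edgeR without each library. Signs were less stable for genes near 0: over 1250 refits of the 10 genes the sign of the log2 change turned in 110, of them 30 for Wfs1, 24 for Iyd, 16 for Bok and 1 for Fibcd1, and the value moved by over 1 SE in 52. Some of these refits left out only a library outside the groups compared, which moves the value little. With the replicate number as a block, which the labels do not tie to a shared animal or day, Fibcd1 was at -0.80 at CT22 (edgeR adjusted p = 0.363) and 0 members were called. Samples of the same number correlated at -0.29 to 0.35 in their deviations from the group means (18 pairs), and samples of different numbers at -0.31 to 0.34 (36 pairs). Of the 12 libraries, 4 correlated best with their own number. With 3 libraries per group these values cannot decide whether a number marks a shared animal or day. The numbers were not taken as pairs because the labels do not say so. The number of genes called ranged from 1 to 42 for KO against WT over both labels, from 1 to 4 at CT10, from 1 to 30 at CT22, from 0 to 4 between labels in WT and from 0 to 1 in KO; the 42 were called without WT CT22 replicate 1 and KO CT22 replicate 1. DESeq2 runs at CT22 without 1 library each called 6 to 325 genes, the 325 without WT CT22 replicate 1. The mean ratio of CA1 to CA3 sums was 3.5 and went down to 2.87 without WT CT22 replicate 1. The alternatives that left out libraries for their Dbp or dentate granule level, the companion lists with libraries left out, the CA2 sum without Pcp4 and the DESeq2 runs with a library left out were chosen after seeing the data. Depth limits Iyd most, at 12 to 83 counts.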
